A study of Homo sapiens with 6 samples.

Results

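The shared DEK intervals at unidirectional coding promoters are stretches where peaks of DEK binding from 2 precipitations overlapped by at least 1 bp and that lie beside the start of a coding gene. An interval was a member when its middle lay within 1000 bp of a transcription start site (TSS) of a protein-coding gene and no TSS of any gene on the opposite strand lay within 1000 bp of that middle. Of 4453 shared intervals in all, 4435 lay on chromosomes 1 to 22, X and Y, and 629 of these were members. The remaining intervals were 233 at bidirectional coding promoters, which also have a TSS on the opposite strand, 299 at starts of noncoding genes only, and 3274 with no TSS within 1000 bp. Chromatin of U937 cells, a single established human line of myeloid origin, was precipitated with an antibody to DEK (DEK Rep1 and Rep2) or to trimethylated lysine 4 of histone H3 (H3K4me3 Rep1 and Rep2). The cells carried no genetic change or treatment made for this experiment, and no sample among the 6 is of cells depleted of DEK. The remaining 2 of the 6 samples, non-precipitated chromatin, were not analysed here as lists of their own. Nothing in the labels ties the replicates to separate cultures.

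DEK is an abundant chromatin protein of the nucleus that binds DNA and histones, and its gene is joined to NUP214 by a translocation in a form of acute myeloid leukemia. H3K4me3 is a histone mark laid down around the starts of active and poised genes. Mammalian promoters fall broadly into CpG-rich ones, which often serve housekeeping genes, and CpG-poor ones, which more often hold a TATA box and serve genes with restricted expression. The rule for membership used DEK peaks and gene annotation alone, so H3K4me3, sequence composition, the side of the TSS and gene identity could be compared. Gene identity is not free of the rule, since genes differ in whether a TSS lies opposite their start. The DEK scores decided which peaks were listed at all and are given as a description.

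The DEK lists differ in length, with 15017 peaks in replicate 1 and 152779 in replicate 2, and 27.4% of the former overlapped the latter. MACS, the peak caller, gave every peak of replicate 1 a false discovery rate of 100%, against 0.74% to 16.67% in replicate 2. The H3K4me3 lists held 47523 and 29335 peaks, and 92.2% of replicate 2 peaks met a replicate 1 peak. An H3K4me3 peak in both replicates lay within 500 bp of the canonical start of 8 of 12 myeloid marker genes, among them SPI1, MPO and CEBPA, and of 0 of 4 T cell, 0 of 4 B cell, 0 of 4 erythroid, 0 of 4 epithelial and 0 of 4 hepatocyte markers. Of 4 neuronal markers, SYP had one.

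The sequences of a few members show what lay in front of the genes. For each, the 200 bases upstream of the nearest coding TSS are printed from GRCh37 (hg19) on the strand of the gene, in stretches that hold no annotated exon and lie whole inside the DEK interval. Capitals mark matches on either strand, where adjoining ones can run together. The letters searched were the TATA box TATAAA and the box of the promoter-binding factor NF-Y, CCAAT. The core recognized by ETS factors was CCGGAAG, and that recognized by RUNX factors was TGTGGT. The first pair are the histone genes with the highest lower score, H1-4, a linker histone, and H3C10, a core histone.
H1-4, chr6:26156357-26156556 (+): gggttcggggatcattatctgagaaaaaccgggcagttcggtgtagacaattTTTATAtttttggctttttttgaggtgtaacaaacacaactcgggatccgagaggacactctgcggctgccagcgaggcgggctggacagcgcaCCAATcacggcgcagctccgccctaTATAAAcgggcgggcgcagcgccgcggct
H3C10, chr6:27777629-27777828 (+): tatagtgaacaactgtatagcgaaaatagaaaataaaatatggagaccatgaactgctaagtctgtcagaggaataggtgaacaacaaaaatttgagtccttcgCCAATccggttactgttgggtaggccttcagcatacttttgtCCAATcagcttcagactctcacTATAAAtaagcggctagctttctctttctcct
In both, TATAAA began 29 or 32 bases before the TSS, and a CCAAT began 54 bases before it. The next 4 are members at canonical starts with H3K4me3 in both replicates, the highest by lower score whose stretch holds CCGGAAG. They are CDKN2AIP, a regulator of the ARF and p53 pathway, and S100A9, a calcium-binding protein of neutrophils and monocytes that the study follows. With them are MCTS2, an intronless copy of the translation factor gene MCTS1, and MEIS1, a homeobox factor of blood stem cells.
CDKN2AIP, chr4:184365588-184365787 (+): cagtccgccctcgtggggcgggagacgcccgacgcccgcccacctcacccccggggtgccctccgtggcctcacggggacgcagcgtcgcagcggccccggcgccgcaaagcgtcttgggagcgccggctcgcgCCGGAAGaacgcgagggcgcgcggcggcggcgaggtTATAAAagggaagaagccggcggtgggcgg
S100A9, chr1:153330130-153330329 (+): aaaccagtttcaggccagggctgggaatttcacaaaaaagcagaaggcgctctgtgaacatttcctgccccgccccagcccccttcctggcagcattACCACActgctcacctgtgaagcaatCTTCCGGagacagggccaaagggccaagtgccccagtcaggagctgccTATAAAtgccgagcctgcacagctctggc
MCTS2, chr20:30134982-30135181 (+): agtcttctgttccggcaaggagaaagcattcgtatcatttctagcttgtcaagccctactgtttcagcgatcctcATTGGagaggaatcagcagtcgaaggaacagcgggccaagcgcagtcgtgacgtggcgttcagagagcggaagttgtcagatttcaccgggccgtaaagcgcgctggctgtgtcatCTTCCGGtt
MEIS1, chr2:66662057-66662256 (+): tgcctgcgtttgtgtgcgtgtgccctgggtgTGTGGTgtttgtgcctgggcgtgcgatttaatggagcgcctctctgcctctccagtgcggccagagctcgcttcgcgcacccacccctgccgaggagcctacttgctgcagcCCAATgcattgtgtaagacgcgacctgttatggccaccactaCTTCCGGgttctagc
The ETS core began 66 bases before the TSS of CDKN2AIP, 77 before S100A9, 9 before MCTS2 and 15 before MEIS1. CDKN2AIP and S100A9 also held TATAAA 30 and 29 bases before their starts, and S100A9 a RUNX core beginning 103 bases before it. The last pair are CpG-poor members at other than the canonical start that hold a RUNX core, IRF5, an interferon regulatory factor of myeloid cells, and ADARB1, an RNA-editing adenosine deaminase.
IRF5, chr7:128580526-128580725 (+): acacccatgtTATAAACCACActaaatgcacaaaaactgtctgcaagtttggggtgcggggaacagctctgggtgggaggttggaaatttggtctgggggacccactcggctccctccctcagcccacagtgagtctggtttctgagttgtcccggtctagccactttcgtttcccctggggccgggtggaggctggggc
ADARB1, chr21:46572245-46572444 (+): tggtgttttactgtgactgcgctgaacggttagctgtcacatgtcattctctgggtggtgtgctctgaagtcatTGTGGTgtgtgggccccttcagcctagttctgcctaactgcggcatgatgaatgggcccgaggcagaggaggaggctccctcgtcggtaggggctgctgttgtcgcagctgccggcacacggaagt
Here the RUNX core began 185 and 126 bases before the TSS. All 8 stretches were chosen after their values were seen.

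The members had moderate DEK peaks in both precipitations. The peak score of MACS, a p-value on a scale of -10 log10, had a median of 75.1 in replicate 1 (quartiles 59.0 and 112.65) and 94.7 in replicate 2 (68.0 and 156.5). The peaks held a median of 86 tags in replicate 1 and 37 in replicate 2, with 574 of 629 members (91.3%) holding more tags in replicate 1, while 402 (63.9%) scored higher in replicate 2. Median fold enrichment over the local background of MACS was 5.08 and 3.86, and the shared interval had a median width of 860 bp. Only 90 members scored 100 or more in both lists. At bidirectional promoters the median scores were 78.4 and 98.9. Across the 629 members the rank correlation between replicates was 0.073 for scores, 0.595 for tags and 0.484 for peak length. These values are a description, since the members were chosen for peaks that overlap in both lists. The 629 intervals came from 588 distinct peaks of replicate 1 and 628 of replicate 2, so that some neighbouring members share a peak.

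**Figure D1:**
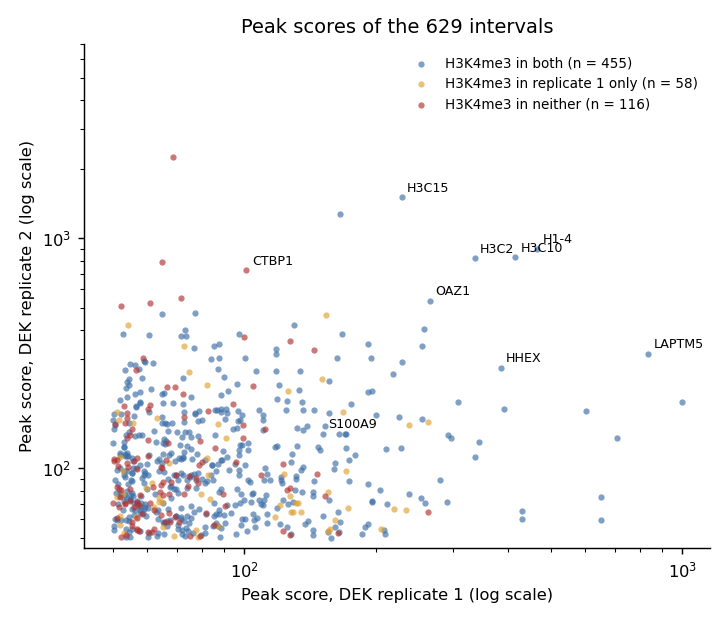
Peak score of each of the 629 members in DEK replicate 1 (horizontal, log scale) and replicate 2 (vertical, log scale), with 1 point per interval coloured by its overlap with H3K4me3 peaks. Scores start at the listing threshold of 50 on both axes, with medians of 75.1 and 94.7. The named histone genes lie toward the upper right, and LAPTM5 is high in both.

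Of the 12 members with the highest lower score, 6 lay beside histone genes. The highest lower score was at H1-4 (chr6:26156126-26157702), with 466.3 in replicate 1 and 900.5 in replicate 2 and with 420 and 166 tags. H3C10 (chr6:27777598-27778531) scored 415.1 and 826.9, H3C2 (chr6:26031632-26032379) scored 335.4 and 819.3, and H1-2 (chr6:26055658-26056937) scored 256.7 and 402.7. In these 4 the middle of the interval lay in the coding sequence, 235 to 401 bp downstream of the TSS. LAPTM5 (chr1:31229127-31230827), a lysosomal membrane protein of blood cells, scored 834.6 and 315.1, with its summits 1079 and 1092 bp downstream of the TSS. HHEX (chr10:94449715-94452168), a homeobox factor of early blood development, scored 385.0 and 274.1.

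OAZ1 (chr19:2270942-2274262), the antizyme that limits polyamine synthesis, scored 265.6 and 535.1 over an interval of 3321 bp, at a start other than its canonical one. The next were H2AC7, a core histone whose interval is nearest to the overlapping readthrough model ENSG00000282988 (254.9 and 341.5), BANK1, a scaffold of B cell receptor signalling (229.5 and 289.1), ARSG, a lysosomal sulfatase (218.4 and 258.4), and APOLD1 (195.6 and 216.1). H3C15 scored 228.6 and 1507, but it has a near-identical copy, H3C14, about which reads may be divided, and its values are uncertain for that reason. H3C14 scored 164.9 and 1282. All 12 highest-ranked members overlapped H3K4me3 peaks in both replicates.

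The widest intervals were at CD93, a surface receptor of myeloid and endothelial cells (4951 bp, scores 129.96 and 420.3), HNRNPM, a splicing regulator, and SH3TC1. Scores far higher in a single replicate also occurred. MYEOV reached 997.9 in replicate 1 against 193.6 in replicate 2, and the unnamed gene AC010327.2 reached 2250 in replicate 2 against 68.6 in replicate 1, with no H3K4me3 peak. Both were picked after their values were seen.

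Membership at the limits of the rule was decided by a few bases. Just inside the limit for a coding TSS were MTMR12 (985 bp from its TSS, scores 55.4 and 87.7), SH3TC1 (984 bp) and PRICKLE1 (980 bp, 119.75 and 230.75), and just outside it were FARP2 (1006 bp), TMEM229B and MAP1S (both 1007 bp). For the opposite strand, B2M (nearest opposite TSS 1004 bp away) was just inside, and ELF1 (973 bp), H4C9 (950 bp) and EIF5B (935 bp) were just outside. A further opposite TSS between 1000 and 3000 bp away was present for 83 members (13.2%).

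The annotated starts fell into distinct kinds. The canonical start of a coding gene, the TSS of the transcript that Ensembl tags as representative, lay within 1000 bp of the middle for 328 members (52.1%). The others (47.9%) lay beside alternative starts only, 153 of them with at least 1 protein-coding transcript and 148 with only noncoding transcripts of a coding gene, such as retained-intron forms. By position, the middle lay in an intron of some transcript in 289 members, in a UTR in 114, upstream in 103, in coding sequence in 74 and in another exon in 49. The members lay beside 572 distinct nearest genes, of which 49 had 2 or more members. In terms of all coding genes, 586 of 20163 had a member, which is 2.91%, a share that the rule itself fixes.

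Most members carried H3K4me3, less often than bidirectional promoters and more often than the other shared intervals. An H3K4me3 peak overlapped 513 of 629 members in replicate 1, or 81.6% (95% Wilson interval 78.3% to 84.4%), and 455 in replicate 2, or 72.3% (68.7% to 75.7%). Over all shared intervals the shares were 49.9% and 34.1%, and 33.7% had a peak in both. All 455 members with a replicate 2 peak also had a replicate 1 peak, 58 had one in replicate 1 only, and 116 (18.4%) had none in either. At bidirectional coding promoters the shares were 95.3% and 94.4%, so that unidirectional promoters were different by -13.7 percentage points in replicate 1 (95% Newcombe interval -17.5 to -9.19) and by -22.1 points in replicate 2 (-26.4 to -17.1). Starts of noncoding genes had 62.5% and 49.5%, below the members by 19.02 points (12.8 to 25.3) and 22.8 points (16.1 to 29.4). Intervals with no TSS had 39.4% and 21.1%. These intervals cover counting error only, since regions of the same precipitations are not replicates.

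**Figure D2:**
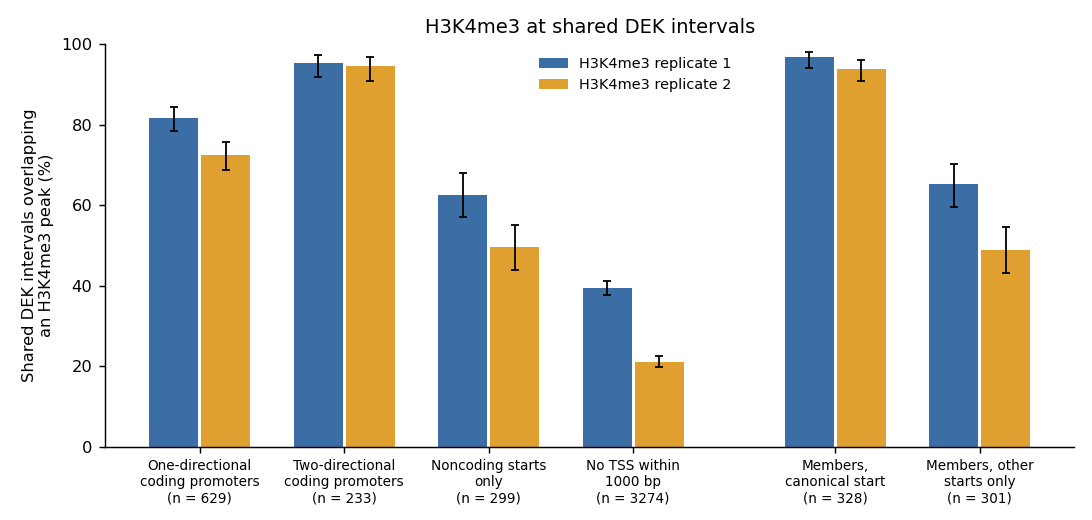
Share of shared DEK intervals overlapping an H3K4me3 peak by at least 1 bp, in percent, for each class of interval (4 pairs at left, with unidirectional and bidirectional promoters first) and for members divided by the kind of start (2 pairs at right), with 1 bar per H3K4me3 replicate and 95% Wilson intervals as error bars. Members reach 81.6% and 72.3%, between bidirectional promoters and noncoding starts, and members at canonical starts reach 96.6% and 93.9%.

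Members at canonical starts overlapped H3K4me3 in 96.6% and 93.9%, beside 95.3% and 94.4% at bidirectional promoters. Members at alternative starts only had 65.1% and 48.8%, a difference of 31.5 points (25.8 to 37.3) in replicate 1 and 45.1 points (38.6 to 51.0) in replicate 2. Among the latter, those with a protein-coding transcript had 79.1% and 63.4%, and those with noncoding transcripts only had 50.7% and 33.8%, a difference of 28.4 points (17.8 to 38.2) and 29.6 points (18.4 to 39.8). The difference between canonical and alternative starts was also present within CpG-rich windows (98.6% against 78.5% with a peak in both replicates) and within CpG-poor windows (84.5% against 40.7%).

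The members without H3K4me3 differed in several measured ways from those with it in both replicates. Their median tags were 40.5 and 26.5, against 96 and 39, and their median width was 606.5 bp, against 923 bp. Sequence rich in short words present in very many copies in the genome, where reads can be harder to place, was found in 44.8% of them and in 10.3% of the members with H3K4me3 in both. Only 9.48% lay at a canonical start. How well reads could be placed in such sequence was not measured, and the part of read placement in their peaks was not tested. The highest of them by lower score were POC5, a centriole protein (144.1 and 326.7), SLC51A, a subunit of a bile acid and steroid transporter (127.0 and 356.7), ARHGAP45 (111.5 and 148.4), ANGPT2, a vessel growth factor (104.9 and 228.5), SATB1, a chromatin organizer of lymphoid cells (122.3 and 104.9), and CTBP1, a transcriptional corepressor (101.1 and 727.3). POC5 and SLC51A held high-copy sequence and the other 4 did not. Without the 110 members that hold such sequence, 78.6% of 519 had H3K4me3 in both replicates.

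Seen from the genes, most canonical starts with a member had H3K4me3, while most starts with H3K4me3 had no shared DEK interval. Of canonical starts with no TSS on the opposite strand within 1000 bp, 314 had a member and 13978 had no shared interval. Within 500 bp of the start, an H3K4me3 peak was present at 96.2% of the former (95% Wilson interval 93.4% to 97.8%) and 45.7% of the latter (44.9% to 46.5%) in replicate 1, and at 93.9% (90.7% to 96.1%) and 43.5% (42.6% to 44.3%) in replicate 2. The difference was 50.5 points in each replicate. Over all 14304 such starts the shares were 46.9% and 44.6%, and 44.5% had a peak in both. In replicate 1, 6390 of the 6704 starts with an H3K4me3 peak had no shared interval. Among CpG-rich starts, 98.8% and 98.0% of 255 with a member had a peak, against 66.0% and 64.2% of 8146 without, and among CpG-poor starts 84.7% and 76.3% of 59 with a member did, against 17.2% and 14.4% of 5811 without. The difference was thus present in both kinds of promoter.

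At alternative starts H3K4me3 was rarer, and again more frequent beside DEK. Of unidirectional alternative starts of coding genes, taken at least 1000 bp apart, 283 had a shared DEK interval and 41600 had none. An H3K4me3 peak lay within 500 bp of 64.3% of the former (58.6% to 69.7%) and 9.38% of the latter (9.11% to 9.67%) in replicate 1, and of 48.8% and 7.21% in replicate 2. Over all 41883 the shares were 9.76% and 7.49%, and 7.13% had a peak in both. Where an H3K4me3 peak covered a canonical start, it was also wider beside a member, with a median of 3255 bp against 2727 bp in replicate 1 and 3074 bp against 2594 bp in replicate 2. Unshared DEK peaks were present at many starts that did not become members, with a replicate 2 peak at 35.0% and a replicate 1 peak at 2.26% of the starts without a shared interval, so that a start without a shared interval is not shown to lack DEK. Unshared here means that no shared interval had its middle within 1000 bp of the start.

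H3K4me3 beside members reached farther downstream of canonical starts than upstream, as it did at canonical starts without a shared interval. The fall of DEK coverage with distance from the TSS is fixed by the rule and is given as a description. For members at canonical starts, coverage was taken from the nearest coding TSS, which need not be the canonical one. DEK peaks covered that TSS in 89.3% in replicate 1 and 87.5% in replicate 2. At 1000 bp upstream and downstream these shares were 33.6% and 32.4% in replicate 1 and 28.7% and 31.5% in replicate 2. H3K4me3 peaks covered the TSS in 95.4% and 92.4%. At 1000 bp upstream they covered 72.5% and 64.5%, and at 1000 bp downstream 90.2% and 89.0%. At canonical starts without a shared interval these shares were 29.0% and 23.7% upstream and 40.7% and 38.4% downstream. At alternative starts only, DEK covered the TSS in 74.9% and 65.3%, and H3K4me3 in 61.2% and 45.4%, with 48.8% and 34.0% at 1000 bp upstream against 46.7% and 35.4% downstream.

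**Figure D3:**
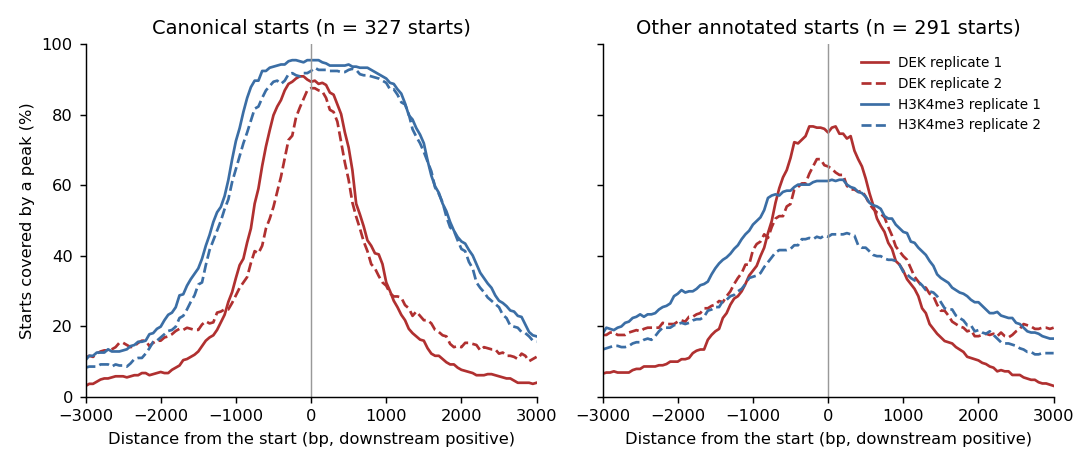
Share of starts covered by a peak, in percent, at each distance from the TSS in bp (downstream positive), with lines for both DEK and both H3K4me3 replicates. The starts are the nearest coding TSSs of members. At left are 327 distinct ones of members with a canonical start within 1000 bp, and at right 291 of members at alternative starts only. DEK falls off within about 1000 bp on either side, which the rule fixes. At left, H3K4me3 reaches 90.2% at 1000 bp downstream against 72.5% upstream in replicate 1.

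Which side of the TSS DEK favoured differed between the precipitations. The TSS was the coding one nearest to the middle, also for members at canonical starts. The middle of the interval lay downstream in 324 of 626 members with a side (51.8%, 95% Wilson interval 47.8% to 55.6%), with 3 members exactly at the TSS. The summit, the highest point of the peak, lay downstream in 39.7% in replicate 1 (36.0% to 43.6%), with a median of -58 bp, and in 49.9% in replicate 2 (46.0% to 53.8%), with a median of -2 bp. Among members at canonical starts the contrast was larger, with 34.0% downstream in replicate 1 (29.1% to 39.4%, median -73 bp) and 49.7% in replicate 2 (44.3% to 55.1%). An upstream placement was therefore measured in a single precipitation.

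Members at canonical starts were CpG-rich more often than members at alternative ones. A window reaching 150 bp to either side of the middle was called CpG-rich when its GC content exceeded 50% and its observed over expected CpG exceeded 0.6. This held for 283 of 629 members (44.99%, 41.1% to 48.9%), 82.8% of bidirectional promoters, 31.1% of noncoding starts and 14.9% of intervals with no TSS, against 23.8% of all shared intervals and 58.9% of unidirectional canonical starts. Members at canonical starts reached 66.5% and those at alternative starts only 21.6%. Centred on the start instead of the interval, 81.2% of canonical starts with a member were CpG-rich, against 58.4% of those without a shared interval, a difference of 22.8 points (18.1 to 26.9). CpG-rich members carried H3K4me3 in both replicates in 94.0% and CpG-poor ones in 54.6%.

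Motif letters differed with the kind of start. In the same window, on either strand, TGTGGT (RUNX) occurred more often at alternative starts only (25.2%) than at canonical ones (12.8%), a difference of -12.4 points for canonical starts (-18.5 to -6.33). It occurred in 21.7% of shared intervals at noncoding starts, 23.7% of those with no TSS and 7.73% of those at bidirectional promoters, so that the share at alternative starts was near that of shared intervals away from coding starts. TATAAA was also more frequent at alternative starts only (8.64%) than at canonical ones (3.96%), a difference of -4.67 points for canonical starts (-8.73 to -0.87). CCGGAAG (ETS) went the other way, with 12.2% at canonical starts and 4.32% at alternative ones (difference 7.88, 3.604 to 12.2), as did GGGCGG (GC box, bound by SP1), with 46.0% and 26.6%, and AAGATGG (YY1), with 9.15% and 3.65%. GAGGAAG (a core of PU.1, the ETS factor of myeloid cells, which shares its last 5 letters with CCGGAAG) occurred in 18.3% and 15.9%, a difference within its interval (-3.597 to 8.21). Around all unidirectional canonical starts, TGTGGT occurred in 10.9%, CCGGAAG in 10.2%, GGGCGG in 56.4%, AAGATGG in 6.11%, GAGGAAG in 14%, CCAAT in 32.4%, TATAAA in 9.97%, CACGTG in 7.18% and TGACGTC in 3.62%. Those windows were centred on the TSS and not on an interval. In the windows of all members, TATAAA occurred in 6.20%, CCAAT in 22.7%, CACGTG in 7.95% and TGACGTC in 1.75%. CpG-rich members held CCGGAAG in 15.2%, TATAAA in 3.53% and GGGCGG in 56.5%. All CpG-rich unidirectional canonical starts held these in 15.0%, 3.55% and 81.5%. High-copy sequence was found in 26.2% of members at alternative starts only and in 9.45% of those at canonical starts. Their windows were CpG-rich in 21.6% and 66.5%. The part of either in the motif differences between kinds of start was not tested. A match of letters describes the sequence and is not a binding site.

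Windows centred on the start held CCGGAAG at 23.2% of canonical starts with a member and 9.87% of those without a shared interval. GGGCGG was also more frequent beside a member, at 63.1% against 56.2% (difference 6.85, 1.32 to 12.1). The same held for GAGGAAG (19.7% against 13.9%) and AAGATGG (10.2% against 6.03%). CCAAT was rarer, at 26.1% against 32.5% (-6.41, -11.0 to -1.23). For TATAAA, at 11.1% against 9.94%, the interval of the difference included 0 (1.20, -1.86 to 5.19). Because such starts also differed in CpG content and H3K4me3, starts in the same class of both were compared. Within these classes the degree of CpG content and of H3K4me3 was not matched. Among CpG-rich canonical starts with H3K4me3 in both replicates, 250 had a member and 5223 had no shared interval. CCGGAAG occurred within 150 bp of 26.8% of the starts with a member and 19.4% of those without (difference 7.42 points, 2.20 to 13.3). TATAAA occurred at 10.8% and 2.47% (difference 8.33, 5.03 to 12.8). GAGGAAG was at 18.0% and 12.7% (5.33, 0.96 to 10.6) and TGTGGT at 10.4% and 6.24% (4.16, 0.88 to 8.60). Among these starts, unlike over all canonical starts, GGGCGG was rarer beside a member, at 71.6% against 82.7% (difference -11.1, -17.0 to -5.72). CCAAT was rarer too, at 25.2% against 31.8% (-6.62, -11.8 to -0.76). For CACGTG (an E-box, bound by USF factors), TGACGTC (the cyclic AMP response element) and AAGATGG the interval of the difference included 0.

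**Figure D4:**
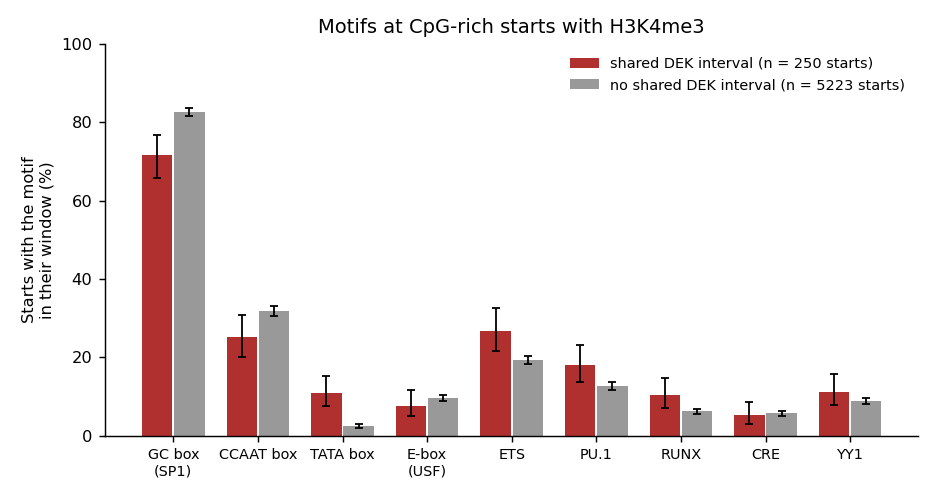
Share of CpG-rich canonical starts with H3K4me3 in both replicates that hold each motif on either strand within 150 bp of the TSS, in percent, for 250 starts with a shared DEK interval (red) and 5223 without (grey), with 95% Wilson intervals as error bars. Among these starts the GC box is the most frequent and is lower beside DEK (71.6% against 82.7%), and the ETS core and the TATA box are higher.

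Of the 27 starts with a member and TATAAA, 11 belonged to histone genes. Without histone genes, TATAAA occurred at 6.75% of 237 starts with a member and 2.45% of 5219 without (difference 4.30, 1.70 to 8.25), and CCGGAAG at 27.8% and 19.4% (8.46, 3.03 to 14.6). The starts with an unshared DEK peak lay between these in CCGGAAG, with 24.1% of 162 starts with a replicate 1 peak and 20.9% of 2866 with a replicate 2 peak, against 17.0% of 2222 starts with neither (difference 7.06, 0.91 to 14.4, and 3.92, 1.75 to 6.07). For GAGGAAG these shares were 13.0%, 12.5% and 12.8%, for TGTGGT 6.17%, 6.42% and 5.99%, and for TATAAA 5.56%, 2.51% and 2.25%. Of these, the interval of the difference from starts with neither was above 0 for TATAAA beside replicate 1 peaks (3.31, 0.61 to 8.0) and included 0 for the others. GGGCGG was at 70.4% with an unshared replicate 1 peak, 83.2% with a replicate 2 peak and 82.9% with neither, so that the lower share of GC boxes was measured beside replicate 1 peaks (difference -12.5, -20.1 to -5.83) and not beside replicate 2 peaks (0.28, -1.78 to 2.38). The replicate 1 and replicate 2 groups overlap, since starts with a peak of each but no shared interval were counted in both. In a shorter window, of 100 bp to either side, CCGGAAG was at 24.8% with and 16.2% without a member (difference 8.62, 3.57 to 14.4), and in a longer one, of 300 bp to either side, at 30.8% and 26.3%, where the interval of the difference included 0 (4.51, -1.02 to 10.6). For GAGGAAG the interval included 0 in both, with a difference of 1.72 (-1.64 to 6.24) in the shorter window and 4.81 (-0.55 to 10.8) in the longer one. The differences for the TATA box, the RUNX core, the GC box and the CCAAT box kept their sign and an interval without 0 in both windows.

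Of 22 lists of genes, the histones had the highest share with a member. A member lay at 18 of 90 histone genes (20.0%), against 2.91% of all coding genes. All 18 had H3K4me3 in both replicates at the canonical start. Of the 51 histone genes whose canonical start has no opposite TSS within 1000 bp, 32 had no shared interval, and 8 of these 32 had H3K4me3 in both replicates. Besides the 4 highest, members were at H4C12 (scores 390.8 and 181.8), H4C11 (155.7 and 174.6), H3C1 (135.9 and 179.8), H4C1 (135.9 and 146.8), H2AC4 (335.4 and 112.6), H4C15 (107.8 and 179.03), H4C4 (88.7 and 108.9), H2BC18 (87.4 and 346.0), the replication-independent H3-3B (64.95 and 167.2), H3C3 (54.0 and 237.5) and H3C13 (53.3 and 267.9, an interval also beside H2BC18). H3C1 and H4C1 shared a single replicate 1 peak, as did H3C2 and H2AC4. Histone genes lie in clusters of near-identical copies, so they are not independent and reads may be divided among them. Of the 39 histone genes with an opposite TSS at the canonical start, 20 had a shared DEK interval there, beside 19 of the 51 without one, so that shared intervals at histone genes were not particular to unidirectional promoters.

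**Figure D5:**
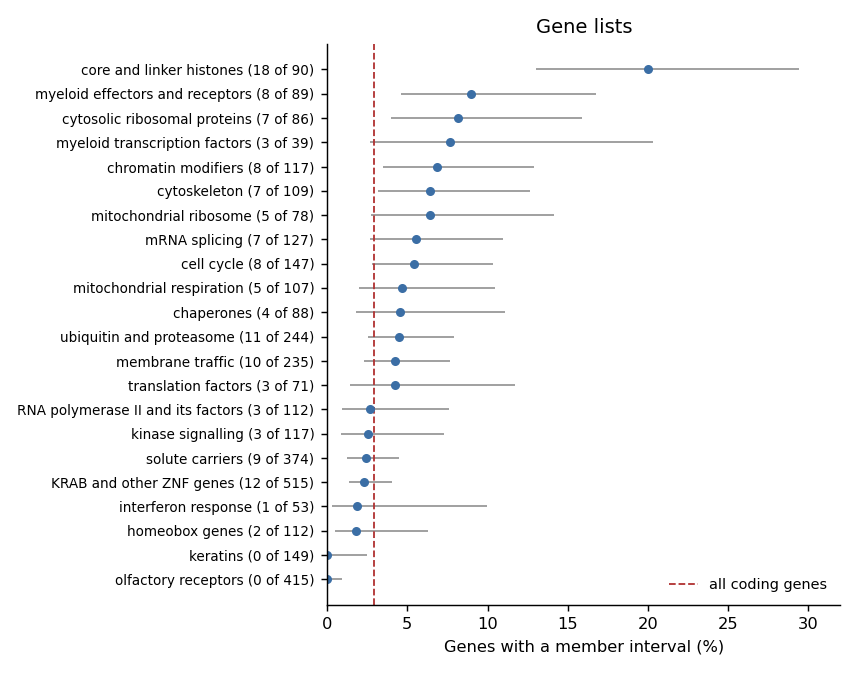
Share of genes in each of 22 lists that had a member interval, in percent, with 95% Wilson intervals as horizontal lines and counts in the labels, and a dashed line at the share over all coding genes (2.91%). Histones lie farthest to the right at 20.0%, and keratins and olfactory receptors are at 0.

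Of 89 myeloid effectors and receptors, 8 had a member (8.99%, 95% Wilson interval 4.63% to 16.7%), and of 39 myeloid transcription factors 3 did (7.69%, 2.65% to 20.3%, which holds the 2.91% of all coding genes). With the TSS windows of the rule at 500 bp these shares were 7.87% and 5.13%. S100A9 (chr1:153329638-153330469) scored 151.2 and 141.3 and held 55 and 29 tags, with both summits upstream, at -99 and -139 bp. Its relative S100A11 scored 100.2 and 103.6, ITGA4, an integrin of leukocytes, scored 88.5 and 209.2, and CD68, a lysosomal protein of macrophages, scored 154.9 and 78.8 with H3K4me3 in replicate 1 only. The others were FCGR2A, an Fc receptor, ICAM1, an adhesion molecule, ITGB7, an integrin, and LILRA1, a leukocyte receptor. The transcription factors were IRF5 (170.1 and 141.2), IKZF1, a lymphoid and myeloid regulator (212.1 and 70.1), and MYB, a factor of blood progenitors (94.2 and 148.4), all at other than their canonical starts and all with H3K4me3 in both replicates.

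Genes for protein synthesis and chromatin also held members. Ribosomal proteins had 7 of 86 (8.14%, or 9.30% with TSS windows of 500 bp), among them RPL27A (118.3 and 329.55), RPS29 (96.0 and 232.8), RPS13 (59.3 and 69.7) and RPL22L1 (112.65 and 58.0), and all 7 genes had H3K4me3 in both replicates, as did 82 of the whole list (95.3%). Translation factors had 3 of 71 (4.23%, 1.45% to 11.7%, which holds the 2.91% of all coding genes). EEF1A1, the elongation factor, scored 97.5 and 383.6, and EIF2S3, a subunit of an initiation factor, 134.6 and 98.5. The other, at EIF2AK1, lay at an alternative start and overlapped no H3K4me3 peak in either replicate. The chromatin modifiers had 8 of 117 (6.84%), with ARID1A of the SWI/SNF remodeller (170.6 and 140.7), KDM5C, which removes H3K4 methylation (119.0 and 199.85), HDAC5, a deacetylase (86.6 and 180.2), and CHD2, a remodeller (80.2 and 89.65). Splicing genes had 7 of 127 (5.51%, 2.70% to 10.9%), including LSM5 (191.5 and 214.85) and SF3B5 (146.9 and 123.5). Cell cycle genes had 8 of 147 (5.44%, 2.78% to 10.4%). Both intervals hold the 2.91% of all coding genes. The cell cycle genes include CDKN2AIP (306.7 and 193.5), CENPU, a centromere protein (166.9 and 384.9), and CCNT1, a partner of the elongation kinase CDK9 (129.2 and 71.4).

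Cytoskeletal genes had 7 of 109 (6.42%, 3.15% to 12.7%), including TMSB4X, the actin-binding thymosin (210.9 and 121.0). The cytoskeletal share was 2.75% when the overlap had to cover 50% of each peak, a setting with 388 members in place of 629. Mitochondrial ribosomal proteins had 5 of 78 (6.41%, 2.77% to 14.1%, which holds the 2.91% of all coding genes). Of the signalling genes, 3 of 117 had a member, a share of 2.56% that lies near the background. Zinc finger genes had 12 of 515 (2.33%), solute carriers 9 of 374 (2.41%) and homeobox genes 2 of 112 (1.79%), also near it. None was found at 149 keratins or 415 olfactory receptors, and 1 and 3 genes of these lists had H3K4me3 in both replicates. The remaining lists, for ubiquitin and the proteasome, membrane traffic, mitochondrial respiration, chaperones, the RNA polymerase II machinery and the interferon response, held 1 to 11 genes each and 1.89% to 4.67% of their genes. The lists were chosen with results of these data known, and no list was tested. They also differ in how many genes the rule can easily reach. A canonical start without an opposite TSS within 1000 bp was present for 47 of 86 ribosomal proteins and 407 of 415 olfactory receptors. Over all 20163 coding genes it was present for 14304.

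Of the genes the study followed or drew its motif factors from, S100A9 had a member. VIM, an intermediate filament gene, and USF1 had a shared interval of the bidirectional class. No shared interval lay within 1000 bp of a TSS of IRF8, CSF2RA, CSF3R, CHMP2B, ICAM2, DEK, SPI1, SP1 or RUNX1. An unshared DEK peak lay within 500 bp of the canonical start of DEK and RUNX1 in replicate 1 and of CSF3R and CHMP2B in replicate 2. H3K4me3 was present there in both replicates for all of these but IRF8, which had none, and SP1, which had it in replicate 1 only.

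The 49 genes with 2 or more members held 106 of them, of which 70.8% had H3K4me3 in both replicates and 20.8% in neither, against 72.7% and 18.0% of the members that were the only one of their gene. Among the 6 genes with the most members the mark varied. SEPTIN9, a cytoskeletal GTPase, had 4 members, all in the body of the gene at alternative starts and without H3K4me3 in either replicate. They lay in pairs under replicate 1 peaks of score 99.1 and 60.2, and the narrowest was 5 bp wide. SLC51A and FANCL, a ubiquitin ligase of the Fanconi anemia pathway, had 3 each, again without H3K4me3. CUEDC1 had 3 with H3K4me3 in replicate 1 only. USP48, a ubiquitin protease, and CDCA7L, a MYC-interacting factor, had 3 each. In CDCA7L the member at the canonical start (87.1 and 270.7) had H3K4me3 in both replicates and the other two had none, and in USP48 the interval farther inside the gene (61.0 and 188.9) had none while the 2 nearer its canonical start did. The genes with the most members were picked by their number of members, and neighbouring members could share a peak, as in SLC51A, where all 3 lay under 1 replicate 1 peak of score 127.0. In CUEDC1 and USP48 neighbouring members also shared a replicate 1 peak, of score 87.0 and 91.3.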

How the data were processed

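Peak lists of 2 DEK and 2 H3K4me3 precipitations in U937 cells were used. The submitters' processing notes name Bowtie2, MACS 1.4.1 and hg19, and the authors called DEK peaks in each precipitation separately, with non-precipitated chromatin as control. Each deposited DEK peak has a raw count of the tags in it. Its score, as deposited, expresses the MACS p-value as -10 log10. The authors also deposited a fold enrichment, a ratio of tags to those MACS modelled locally, and a false discovery rate in percent. The deposited H3K4me3 lists hold positions only, and how their peaks were thresholded is not given in the sources used here. A lower limit for sequencing depth is stated in the methods of the study. The lists give only tags in peaks, and the reads behind each were not analysed here.

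Overlaps of at least 1 bp were intersected, and TSSs were those of all transcripts in GENCODE release 44 on GRCh37. The study may have used another annotation. The 18 shared intervals outside chromosomes 1 to 22, X and Y were left out. High-copy sequence was a window of 150 bp to either side of the middle with at least 30 words of 14 bases that each occur 20000 times or more in the genome. Shares have 95% Wilson intervals and differences 95% Newcombe intervals. These cover counting error only, and with 2 replicates no p-value over samples was computed. Motif windows of starts were centred on the TSS, and those of members on the middle of the interval.

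The members, gene lists, motifs and named genes were chosen with earlier results of these data known. Named genes were those at the 12 members with the highest lower score, the 6 highest without H3K4me3, those the study follows, up to 4 per list, those nearest the limits of the rule, the 6 with the most members and the 3 widest. Some genes that this rule names are not reported here. Sequences came from GRCh37. Code ran in Python 3.11.15 (Matplotlib 3.10.9 for plots, Numba 0.67.0 and NumPy 2.4.6 for word counts, pandas 2.3.3 for tables, with SciPy 1.17.1) and was tested on simulated peaks and starts. Results were recomputed with stricter scores, larger overlaps, a shortened replicate 2 list, other TSS definitions and windows, and single replicates.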

Additional observations from a re-analysis of the deposited data

How the results depend on the processing

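No paired analysis was possible because the results are counts and shares of regions and come from no test over samples. The number of members, 629, was 388 when the overlap had to cover 50% of each peak, 90 when both scores had to reach 100, and 163 when the replicate 2 list was cut to the length of replicate 1. With a single DEK list in place of the shared intervals it ranged from 1295 to 15323. The share of members with H3K4me3 in both replicates, 72.3%, was 86.7% when both scores had to reach 100, and with single lists it ranged from 29.9% to 81.6%. It was 78.6% without high-copy sequence, an alternative chosen after seeing the data, as was leaving out intervals under 100 bp. The share with the middle downstream of the TSS, 51.8%, was 39.7% when the summit of replicate 1 was measured. The share in a CpG-rich window, 44.99%, was 54.4% when both scores had to reach 100 and ranged from 28.9% to 29.6% with a single DEK list. The cause of these shifts was not tested, apart from the smaller or larger sets that each setting makes. Of the recomputed values for the whole set, 14 moved beyond the 95% interval of the reported share or by over 1.5 times the reported count, and 26 did not. The share of members with each motif moved with the window, as a longer window holds more letters. The motif differences at CpG-rich starts were recomputed in both other windows after seeing the data. An alternative with the higher-scoring part of each H3K4me3 list was not run, because those lists hold no score.

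The peak lists set limits. The reads behind each list were not analysed here, and 2 replicates per antibody give no usable estimate of spread. Every replicate 1 DEK peak has a false discovery rate of 100%. Peaks record presence above a threshold, so a start without a shared interval is not shown to lack DEK. Both antibodies were used on 1 cell line, and none of these samples is of cells depleted of DEK.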
